A study of Mus musculus with 14 samples.

Results

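The regions described here are 832 stretches of mouse chromosome 4. At each, an ATAC-seq peak was deposited in all 4 libraries of neural stem cells titled without a treatment or vehicle. These carried the ZFTA-RELA fusion or an empty vector, and libraries titled as vehicle controls did not enter the rule. The regions were found by merging the overlapping peaks of those 4 lists. Each merged region that a peak of every one of the 4 lists overlapped by at least 1 bp was kept. Members were thus chosen by the presence of peaks in those 4 lists, and chromosome 4 was chosen with the ranks of its peaks known. The same rule found 15990 regions over the 19 autosomes, of which the 15158 outside chromosome 4 served as the comparison. In all, 3509 merged regions lay on chromosome 4. The members reached from position 3050004 to position 156236472 of the mm10 assembly, and their median width was 1032.5 bp, against 1042 bp for shared regions of the other autosomes.

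ATAC-seq uses the transposase Tn5 to put sequencing adapters into accessible DNA, so that open chromatin appears as peaks of reads. The fusion joins the zinc finger protein ZFTA to RELA, a subunit of the transcription factor NF-kB, and is a known driver of ependymoma, a tumour of the brain and spinal cord. The data were 14 peak lists of brain-derived mouse neural stem cells grown with EGF and FGF, in 7 groups of 2 libraries. ZR denotes fusion cells and EV empty-vector cells. ZR_GSK343 denotes fusion cells given GSK343, an inhibitor of the histone methyltransferase EZH2, at 10 µM for 96 h. ZR_dmCitra denotes fusion cells given citraconate, which the study describes as an antagonist of the itaconate synthase ACOD1, at 10 mM, and ZR_DMSO denotes fusion cells titled as vehicle controls. In a later-numbered library series, Citraconate_50K carried a fusion label with citraconate at 10 mM, and DMSO_50K carried an empty-vector label with DMSO. The protocol names 24 h and 48 h for citraconate without assigning either to a library. The ZR libraries carried a PBS vehicle label, as did the ZR_DMSO libraries, against their titles. EV replicate 1 was labelled DMSO and EV replicate 2 PBS. The labels do not say whether libraries of a group came from separate cultures or whether a line was a single clone, so p-values measure only the spread between libraries, which may be technical.

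The deposited lists held 12554 to 60472 peaks, and depth per library is unknown because the lists hold no read counts. The ZR_DMSO lists were short, with 12554 and 21143 peaks of median width 227 and 186 bp. The ZR_GSK343 lists differed from each other, with 19513 and 57634 peaks. Of 10 neural stem cell markers, 5 and 5 carried a peak at or within 1 kb of an annotated end in the ZR libraries, against 7 and 8 in the EV libraries, and Sox2 and Nes had one in EV and not in ZR. Microglial markers had at most 2 of 6 and oligodendrocyte markers at most 1 of 4 in any library, mesenchymal and vascular markers at most 3 of 6, and neuronal markers up to 4 of 4. The part of these markers in the results was not tested. Outside chromosome 4, 15787 merged regions had a peak in both ZR lists and in no EV list, called ZR-only here. Of these, 40.3% and 37.8% had a peak in the Citraconate_50K libraries, against 74.5% and 81.0% in the DMSO_50K libraries. A further 10448 regions, called EV-only, had a peak in both EV lists and in no ZR list. Of these, 4.2% and 3.51% had one in Citraconate_50K, against 15.9% and 19.7% in DMSO_50K. The first pair runs against the line labels and the other with them, and the Citraconate_50K lists were shorter, at 31864 and 29574 peaks against 52771 and 60472 in DMSO_50K. Within each DMSO_50K library the ZR-only regions were present more often than the EV-only regions, which goes against its empty-vector label. The groups of that series are therefore called by their labels throughout.

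Regions open in both lines are mostly promoters and other elements that many cell types use, and their fold enrichment tracks how often the transposase cut there. Mouse chromosome 4 carries the Cdkn2a and Cdkn2b tumour suppressor locus, which encodes inhibitors of cyclin-dependent kinases and of p53 degradation, and beside it a tandem array of type I interferon genes. It also carries Jun, a component of the transcription factor AP-1, and several regulators of neural progenitors, among them Id3, Hes5 and Nfib.

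Of the 832 members, 524 (63.0%) lay within 1 kb of a gene end, against 53.0% of shared regions on the other autosomes. The remaining 308, called distal here, comprised 184 inside a gene and 124 between genes. A RefSeq promoter window of 300 bases around an annotated start overlapped 472 members. The 652 promoter windows at members had a mean GC content of 63.8 ± 8.51% (SD over windows), against 62.8 ± 8.97% for the 9950 windows at shared regions of the other autosomes and 54.0% for all 31365 autosomal windows. The 6-base GC box GGGCGG, read on both strands, was found in 72.9% of the windows at members, against 69.6% at shared regions elsewhere and 36.0% of all autosomal windows. The sequence CCAAT was found in 40.0%, 38.4% and 37.3% of these sets, and the AP-1 type sequence TGANTCA in 3.07%, 4.12% and 7.85%. The windows at members were thus close in composition to those at shared regions of other autosomes, and both sets were richer in GC than promoters at large.

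Promoter windows of 5 members are shown because they stand for the patterns below. The Cdkn2a tumour suppressor, the neural progenitor regulator Id3 and the cytosolic aconitase Aco1 had lower values in ZR than in EV. Leprot lay in a stretch where the lines overlapped, and Ifnz belongs to the interferon array. They are 300 bases each, from RefSeq on GRCm38.p6, the same coordinates as mm10, and are printed 5′ to 3′ on the strand of the gene. Capitals mark GGGCGG and CCAAT on either strand, and a match is a description of letters and not of bound protein. The positions are chr4:89294570-89294869 (minus strand) for Cdkn2a, chr4:136143572-136143871 (plus) for Id3, chr4:40143015-40143314 (plus) for Aco1, chr4:101647533-101647832 (plus) for Leprot and chr4:88781881-88782180 (plus) for Ifnz. GC boxes numbered 3 in Cdkn2a, 2 in Id3, 3 in Aco1 and 6 in Leprot, with 2 CCAAT sequences in Leprot and neither sequence in Ifnz.
Cdkn2a: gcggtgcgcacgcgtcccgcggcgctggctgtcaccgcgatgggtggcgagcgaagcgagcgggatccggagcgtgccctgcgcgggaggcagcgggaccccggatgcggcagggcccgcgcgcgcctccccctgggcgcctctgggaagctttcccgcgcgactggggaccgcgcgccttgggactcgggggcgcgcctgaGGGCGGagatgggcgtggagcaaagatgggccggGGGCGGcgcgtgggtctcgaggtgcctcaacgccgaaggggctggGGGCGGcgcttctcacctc
Id3: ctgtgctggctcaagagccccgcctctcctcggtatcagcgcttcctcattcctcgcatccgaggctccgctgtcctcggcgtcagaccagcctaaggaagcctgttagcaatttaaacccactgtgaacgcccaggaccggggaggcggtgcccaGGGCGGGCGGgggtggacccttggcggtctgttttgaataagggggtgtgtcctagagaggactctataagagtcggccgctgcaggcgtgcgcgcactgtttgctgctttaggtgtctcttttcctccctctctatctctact
Aco1: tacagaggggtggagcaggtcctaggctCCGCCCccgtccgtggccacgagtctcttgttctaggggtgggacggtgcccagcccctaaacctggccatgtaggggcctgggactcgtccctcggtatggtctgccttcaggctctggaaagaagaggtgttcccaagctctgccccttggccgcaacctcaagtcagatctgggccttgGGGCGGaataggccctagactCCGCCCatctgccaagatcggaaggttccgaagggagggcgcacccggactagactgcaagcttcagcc
Leprot: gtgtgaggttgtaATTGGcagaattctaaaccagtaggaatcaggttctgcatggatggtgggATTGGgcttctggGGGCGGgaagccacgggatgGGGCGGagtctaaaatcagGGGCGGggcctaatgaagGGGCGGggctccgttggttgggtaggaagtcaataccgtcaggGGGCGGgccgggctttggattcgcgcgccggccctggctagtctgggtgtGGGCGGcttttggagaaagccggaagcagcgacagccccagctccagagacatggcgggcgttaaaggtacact
Ifnz: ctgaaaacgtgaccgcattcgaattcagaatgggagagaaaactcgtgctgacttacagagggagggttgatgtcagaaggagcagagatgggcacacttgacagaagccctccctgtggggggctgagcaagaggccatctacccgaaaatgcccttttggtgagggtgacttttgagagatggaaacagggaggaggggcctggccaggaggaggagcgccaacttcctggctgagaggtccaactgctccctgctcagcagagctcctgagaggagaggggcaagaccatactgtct

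Members stood lower in the ZR lists than in the EV lists relative to the rest of each list. For every library the peaks were ranked by the authors' fold enrichment, a ratio over background, and the best peak at each region was given its percentile among the library's autosomal peaks. The median member stood at percentiles 61.5 and 62.2 in the ZR libraries, against 77.1 and 81.4 in the EV libraries. Shared regions of the other autosomes stood at 73.2 and 73.8 in ZR and at 70.9 and 77.2 in EV. The chromosome 4 offset, which is the member median minus the median of the other autosomes in the same library, was −11.8 and −11.6 percentile points in ZR, against 6.15 and 4.29 in EV. By these medians members ranked below the other shared regions in both ZR libraries and above them in both EV libraries, and the 2 pairs did not overlap. Gene-end regions were a larger part of the members than of the other regions. Set against gene-end regions elsewhere, gene-end members stood at −16.8 and −16.0 in ZR and at 1.05 and 0.536 in EV. Set against distal regions elsewhere, distal members stood at −10.6 and −6.18 in ZR and at 7.20 and 6.16 in EV. Over all members, the group means of the offset were −11.7 ± 0.113 in ZR and 5.22 ± 1.32 in EV (SD, n = 2 each). They differed by −16.9 percentile points. Because these 4 lists chose the members, and chromosome 4 itself was chosen with such results known, this is a description and no test is given.

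Chromosome 4 changed places among the autosomes between the lines. Ranked from the lowest offset upward among the 19 autosomes, it was in place 2 in both ZR libraries, against place 19, the highest, in both EV libraries. Chromosome 11 had the lowest offsets in ZR, at −13.8 and −13.5, against −6.40 and −4.38 in EV, where it was lowest in replicate 1 and level with chromosome 2 in replicate 2. Its values kept their sign between the lines, whereas those of chromosome 4 did not. Chromosome 4 was not alone in changing sign. Chromosome 15 stood at −6.64 and −6.58 in ZR, against 1.75 and 0.917 in EV. Chromosome 5 changed sign the other way, with a mean offset of 1.56 in ZR, against −1.47 in EV.

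Percentiles run out of room at the top of a list, so the same comparison was also made on fold enrichment. Each region's fold was divided by the median fold at shared regions of the other autosomes in the same list, and the quotient is called the relative fold. The median fold at members was 13.3 and 13.4 in ZR, against 17.1 and 20.1 in EV, while at shared regions of the other autosomes it was 17.6 and 17.7 in ZR and 14.5 and 17.5 in EV. The relative fold of the median member was therefore 0.758 and 0.758 in ZR, against 1.17 and 1.15 in EV. In bulk libraries, less cutting per cell, fewer cells with a region open and fewer copies of a region cannot be told apart.

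**Figure D1:**
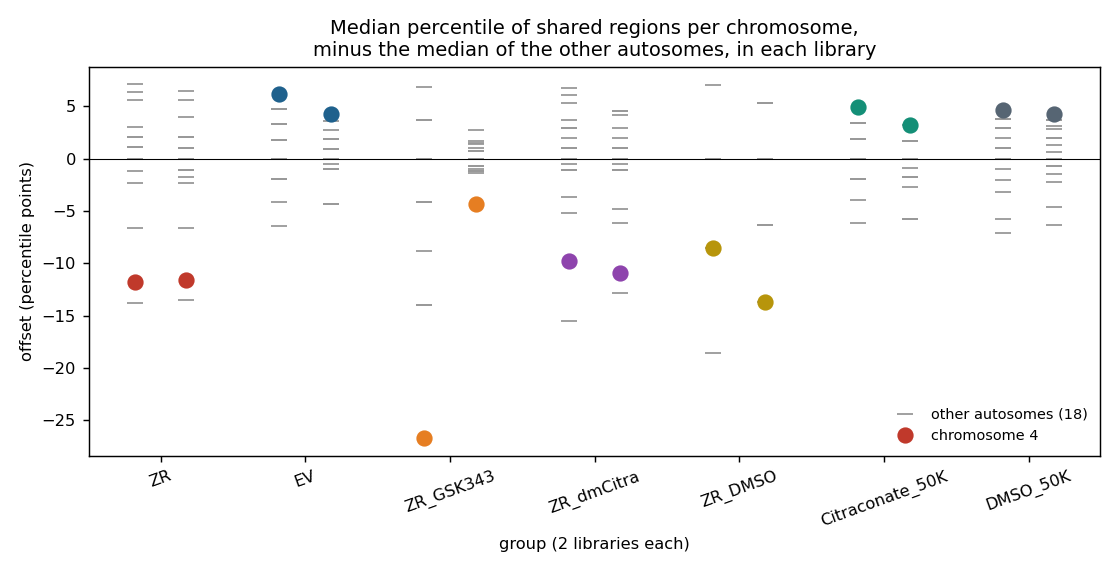
Chromosome 4 offset in percentile points for each of the 14 libraries, by group, with the 18 other autosomes of the same library as grey dashes. The 8 fusion-labelled libraries of the first series lie between −26.7 and −4.35, and the EV and later-series libraries between 3.22 and 6.15.

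The 10 libraries that the rule did not use fell on either side of 0 by library series. The offset was −26.7 and −4.35 in ZR_GSK343, −9.81 and −10.9 in ZR_dmCitra, and −8.58 and −13.7 in ZR_DMSO. It was 4.94 and 3.22 in Citraconate_50K and 4.66 and 4.23 in DMSO_50K. All 6 first-series libraries outside the rule were negative, as ZR was, and all 4 later-series libraries were positive, as EV was, including the fusion-labelled ones. The relative fold of the median member followed the same split, at 0.76 and 0.80 in ZR_GSK343, 0.788 and 0.758 in ZR_dmCitra, 0.933 and 0.875 in ZR_DMSO, 1.13 and 1.08 in Citraconate_50K and 1.14 and 1.14 in DMSO_50K.

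The differences in offset between treated and vehicle libraries were within the spread between libraries. The group means were −15.5 ± 15.8 in ZR_GSK343 and −11.1 ± 3.61 in ZR_DMSO (SD, n = 2 each), a difference of −4.41 (two-sided exact permutation test, p = 1). ZR_dmCitra averaged −10.4 ± 0.803 against the same ZR_DMSO libraries, a difference of 0.753 (exact permutation p = 1). Citraconate_50K averaged 4.08 ± 1.22 and DMSO_50K 4.45 ± 0.302, a difference of −0.369 (exact permutation p = 1). With 2 libraries against 2 no p below 0.333 can be had, and a p that misses the threshold does not show that the groups are alike. The ZR_GSK343 and ZR_dmCitra contrasts share the ZR_DMSO libraries, and their direction depends on single libraries: without ZR_GSK343 replicate 1 the first was 6.77, and without ZR_DMSO replicate 2 the other was −1.80. The third was 0.490 without Citraconate_50K replicate 2. The relative fold gave another order: both ZR_GSK343 and both ZR_dmCitra libraries lay under both ZR_DMSO libraries, by −0.12 and −0.13 on average, and both Citraconate_50K libraries under both DMSO_50K libraries, by −0.035. These differences were not tested, and in ZR_DMSO they rest on the 21.0% and 36.4% of members with a peak.

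By cell line label, the 8 fusion-labelled libraries outside the rule averaged −8.24 ± 10.0 and the 2 empty-vector-labelled ones 4.45 ± 0.302, a difference of −12.7 (two-sided exact permutation p = 0.156, adjusted p = 0.5 by Benjamini-Hochberg over 12 tests). Within the later series, where both labels occur, the difference was the −0.369 given above. A contrast added after the values were seen compared the fusion-labelled libraries outside the rule by series. The 2 of the later series averaged 4.08 ± 1.22 and the 6 of the first series −12.3 ± 7.68. Those 6 pool the ZR_GSK343, ZR_dmCitra and ZR_DMSO libraries. The difference of 16.4 had the smallest p that 2 against 6 allows (exact permutation p = 0.0357, adjusted p = 0.268 over 15 tests). Among libraries with a fusion label the offset therefore differed by series about as much as it did by line between ZR and EV, and series, treatment and doubtful labels cannot be told apart there.

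Peaks on chromosome 4 were also a smaller share of the list in first-series fusion libraries. The share of autosomal peaks that lay on chromosome 4 was 3.7% and 3.74% in ZR, against 6.17% and 6.16% in EV. It was 2.49% and 2.69% in ZR_GSK343, 3.74% and 3.66% in ZR_dmCitra and 1.97% and 2.27% in ZR_DMSO. In the later series it was 6.22% and 6.26% in Citraconate_50K, against 5.85% and 5.89% in DMSO_50K. Every first-series fusion library lay below every other library. The differences were 0.463 percentage points for ZR_GSK343 and 1.58 for ZR_dmCitra against ZR_DMSO and 0.371 for Citraconate_50K against DMSO_50K, each with the smallest exact permutation p of 0.333 (adjusted p = 0.5). The difference by line label outside the rule was −2.21 (exact permutation p = 0.2, adjusted p = 0.5). By series among fusion-labelled libraries it was 3.44 (exact permutation p = 0.0357, the smallest possible, adjusted p = 0.268). That contrast was added after the series were seen to lie apart, so its p supports nothing further. Shares of other chromosomes also differed between the lines. Chromosome 15 held 4.02% and 4.02% in ZR, against 5.29% and 5.35% in EV. Chromosome 11 held 4.86% and 4.79% in ZR, against 5.83% and 5.75% in EV. Chromosome 1 went the other way, with 8.73% and 8.82% in ZR, against 7.04% and 7.19% in EV.

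In ZR_DMSO and ZR_GSK343 members had a peak less often than other shared regions. A peak was present at 45.6% and 90.6% of members in ZR_GSK343, 94.6% and 94.2% in ZR_dmCitra and 21.0% and 36.4% in ZR_DMSO. At shared regions of the other autosomes the values were 63.5% and 91.4% in ZR_GSK343, 94.4% and 93.8% in ZR_dmCitra and 42.7% and 59.4% in ZR_DMSO. In the later series members were present more often than other shared regions, at 94.5% and 95.9% in Citraconate_50K and 98.8% and 99.5% in DMSO_50K, against 84.6% and 84.1% of other shared regions in Citraconate_50K and 94.0% and 96.2% in DMSO_50K.

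The gap between members and other shared regions averaged −9.38 ± 12.2 percentage points in ZR_GSK343, 0.332 ± 0.179 in ZR_dmCitra and −22.3 ± 0.966 in ZR_DMSO (SD, n = 2 each). The differences from ZR_DMSO were 12.9 for ZR_GSK343 and 22.6 for ZR_dmCitra, each at the smallest exact permutation p of 0.333 (adjusted p = 0.5). The ZR_DMSO lists were also short, at 12554 and 21143 peaks, and the part of list length in the gap was not tested. The gap was 10.8 ± 1.40 in Citraconate_50K and 4.03 ± 1.02 in DMSO_50K, a difference of 6.81 (exact permutation p = 0.333, adjusted p = 0.5). By line label outside the rule it differed by −9.16 (exact permutation p = 0.444, adjusted p = 0.593), a value of 1.56 without the ZR_DMSO and ZR_GSK343 libraries. By series among fusion-labelled libraries, the contrast added after the values were seen, it differed by 21.3 (exact permutation p = 0.0714, adjusted p = 0.357 over 15 tests).

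**Figure D2:**
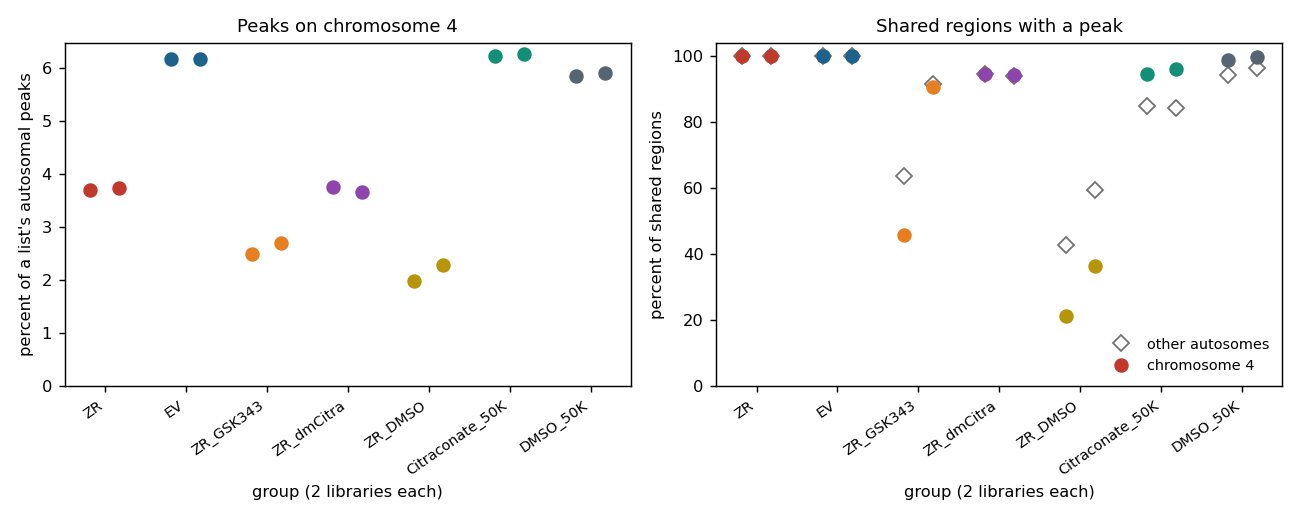
Left, percent of each library's autosomal peaks that lay on chromosome 4. Right, percent of shared regions with a peak in the libraries, with members as dots and shared regions of the other autosomes as diamonds. The ZR libraries stood at 3.7% and 3.74% of peaks and the EV libraries at 6.17% and 6.16%, and in ZR_DMSO the dots lie well under the diamonds.

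Most single members took part in the shift. A region was called lower where both ZR percentiles lay under both EV percentiles, and higher where both lay above. Of the 832 members, 601 (72.2%) were lower and 81 (9.74%) higher, while 150 were neither. Over all shared autosomal regions 36.8% were lower and 31% higher. The median difference of ZR minus EV was −13.4 percentile points (quartiles −26.1 and −4.08), against −0.28 on the other autosomes. On the log2 scale of relative fold the median was −0.64 (quartiles −0.99 and −0.20), a ratio of 0.642, against 0.00 on the other autosomes. Since the rule used this contrast, these counts describe the members and support nothing further.

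The next largest shares of lower regions were on chromosome 15, at 51.0%, chromosome 11, at 49.3%, and chromosome 16, at 45.5%. On chromosome 11 the median log2 relative fold was −0.29, against −0.64 on chromosome 4. Chromosome 1 had the opposite balance, with 25.3% of shared regions lower and 47.8% higher.

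Gene-end members were lower more often than distal members. Of 524 gene-end members 430 (82.1%) were lower and 20 (3.82%) higher, against 36.6% and 28.9% of gene-end regions on the other autosomes. Of 308 distal members 171 (55.5%) were lower and 61 (19.8%) higher, against 32.9% and 35.8% elsewhere. The median log2 relative fold was −0.73 at gene ends and −0.34 at distal members. On the other autosomes both kinds stood near 0, at −0.02 and 0.03. In EV the median percentile was 82.8 and 85.8 at gene-end members, against 63.2 and 71.5 at distal members. The rule kept only regions with a peak in both ZR lists, so weak regions that fell further could be left out. The part of this in the difference between the kinds was not tested.

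**Figure D3:**
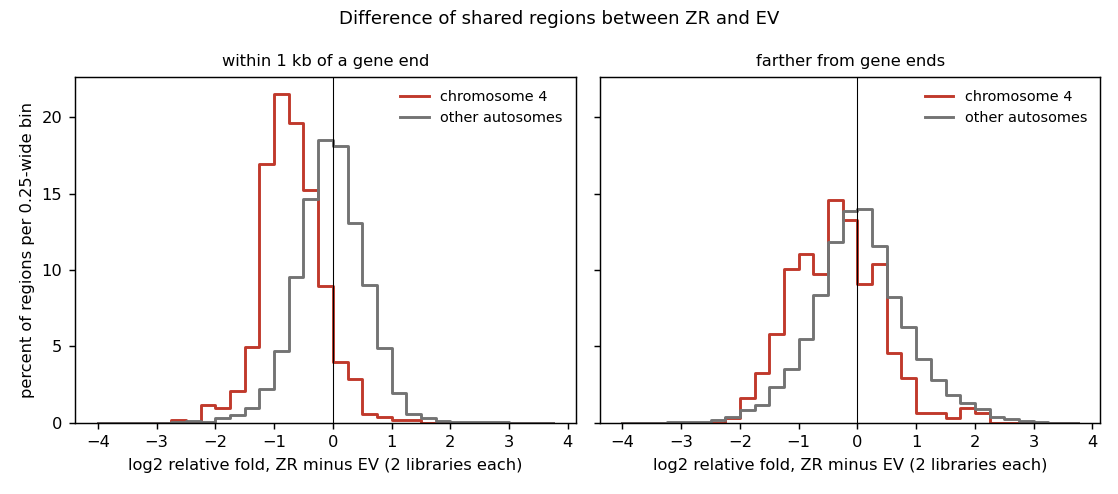
Distribution of the log2 relative fold, ZR minus EV, at gene-end regions and at distal regions, as percent of regions in bins 0.25 wide, for chromosome 4 members and for shared regions of the other autosomes. The member curves are shifted to the left, with medians of −0.73 at gene ends and −0.34 at distal regions, against −0.02 and 0.03.

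The members that differed most in the lower direction were all at gene ends. Pgap4, which takes part in maturation of GPI anchors, had fold enrichments of 7.99 and 6.99 in ZR, against 42.9 and 47.6 in EV. Fam110b had 5.86 and 5.92 in ZR, against 21.5 and 27.5 in EV. Ttpa, the vitamin E transfer protein, had 4.79 and 6.99 in ZR, against 28.4 and 21.7 in EV. In each of these both EV values were several times the ZR values, and the groups lay far apart. Dlgap3, a postsynaptic scaffold protein, had 4.79 and 4.84 in ZR, against 13.9 and 17.5 in EV. Zfyve9, an adaptor of TGF-beta receptor signalling, had 5.33 and 5.92 in ZR, against 17.1 and 19 in EV. Percentiles of the 5 lay between 2.8 and 32.1 in ZR and between 69.0 and 97.1 in EV.

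The members that differed most in the higher direction lay mainly away from gene ends. A region inside Focad, 119237 bp from its nearer end, had fold enrichments of 30.9 and 32.3 in ZR, against 5.05 and 7.41 in EV. A region 49746 bp from an end of Ror1, an orphan receptor tyrosine kinase, had 35.7 and 30.1 in ZR, against 8.21 and 5.82 in EV. A region 67634 bp from Abca1, the cholesterol efflux transporter, had 25.0 and 33.9 in ZR, against 6.95 and 6.88 in EV. These distal regions were weak in EV and strong in ZR, the reverse of most members. A region 4946 bp from Asph, an aspartyl hydroxylase, had 14.4 and 23.7 in ZR, against 5.05 and 4.76 in EV. The gene-end region of Epb41, a membrane skeleton protein, had 17.0 and 15.6 in ZR, against 5.68 and 6.35 in EV.

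Outside the rule these distal regions kept different levels. The Focad region had fold enrichments of 32.7 and 31.8 in ZR_dmCitra, against 4.75 and 11.2 in ZR_DMSO. It had 17.2 and 17.2 in Citraconate_50K, against 16.7 and 25.9 in DMSO_50K. Fold enrichments at other shared regions also differed between these lists. Relative folds of the Focad region were 1.91 and 1.82 in ZR_dmCitra, against 0.60 and 1.37 in ZR_DMSO. They were 1.38 and 1.24 in Citraconate_50K, against 0.81 and 1.12 in DMSO_50K. The Abca1 region had fold enrichments of 16.6 and 12.2 in Citraconate_50K, against 50.7 and 64.7 in DMSO_50K. Its relative folds were 1.33 and 0.88 in Citraconate_50K, against 2.46 and 2.80 in DMSO_50K. The DMSO_50K libraries, labelled as empty vector, thus had higher values at the Abca1 region than any EV library.

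Along the chromosome the shift was broad but uneven. In 10 Mb bins the ZR offset was under the EV offset in 15 of 16 bins, of which 2 held fewer than 20 members. The bin from 90 Mb was the exception, with 12 of 34 members lower and 11 higher. In 5 Mb bins the groups also overlapped from 120 to 125 Mb, where 29 of 55 members were lower and 11 higher. Relative folds there were 0.88 and 0.79 in ZR, against 0.91 and 0.85 in EV. The bin from 40 Mb had 73 of 84 members lower (86.9%), and the bin from 20 Mb, with 15 members, had all 15 lower. The bin from 130 Mb had the lowest relative fold, 0.50 and 0.48 in ZR against 0.83 and 0.82 in EV, with 73 of 90 members lower.

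The stretch bounds of 95 and 105 Mb were chosen after this profile was seen. Up to 95 Mb, 273 of 339 members (80.5%) were lower, and the median relative fold was 0.91 and 0.88 in ZR, against 1.52 and 1.58 in EV. From 95 to 105 Mb, 17 of 48 members (35.4%) were lower and 15 higher, with 1.02 and 0.92 in ZR against 0.85 and 0.98 in EV. From 105 Mb to the end, 311 of 445 (69.9%) were lower, with 0.67 and 0.67 in ZR against 1.00 and 1.00 in EV. In the middle stretch the share of lower members was near the 36.8% of all shared regions and the groups overlapped. The 5 Mb bins within it differed. From 95 to 100 Mb relative folds were 1.06 and 1.06 in ZR, against 0.83 and 0.91 in EV. From 100 to 105 Mb they were 0.91 and 0.91 in ZR, against 1.00 and 1.09 in EV. On either side of the middle stretch the ZR medians lay under the EV medians. The median log2 relative fold was −0.80, 0.02 and −0.55 in the 3 stretches in order.

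The same pattern was seen at gene ends. There 194 of 204 members (95.1%) were lower up to 95 Mb, 5 of 13 (38.5%) from 95 to 105 Mb and 231 of 307 (75.2%) beyond. Distal members were lower in 79 of 135 (58.5%), 12 of 35 (34.3%) and 80 of 138 (58.0%). Of gene-end members in the middle stretch, named after their values were seen, Leprot, which shares a promoter with the leptin receptor, had fold enrichments of 103 and 95.7 in ZR, against 85.9 and 97.9 in EV. Usp1, a deubiquitinase of the Fanconi anaemia pathway, had 63.4 and 64.5 in ZR, against 39.8 and 45.5 in EV. Its relative fold was 3.61 and 3.64 in ZR, against 2.74 and 2.61 in EV, so that it was among the higher members. Jun and Jak1 in the same stretch were lower.

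Outside the rule, ZR_dmCitra had median relative folds of 0.94 and 0.94 up to 95 Mb, 1.00 and 0.94 from 95 to 105 Mb and 0.70 and 0.67 beyond. Its values lay near those of ZR in all 3 stretches. In ZR_DMSO the medians were 0.93 and 0.88 up to 95 Mb, 0.93 and 0.94 from 95 to 105 Mb and 0.93 and 0.81 beyond. In ZR_GSK343 they were 0.81 and 0.88, then 0.86 and 0.80, then 0.76 and 0.76 in the same order. Neither ZR_DMSO replicate 1 nor ZR_GSK343 replicate 2 had a higher value in the middle stretch than up to 95 Mb. Citraconate_50K had 1.21 and 1.12 up to 95 Mb, against 1.22 and 1.2 in DMSO_50K, and 1.08 and 1.08 beyond 105 Mb, against 1.11 and 1.12 in DMSO_50K.

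**Figure D4:**
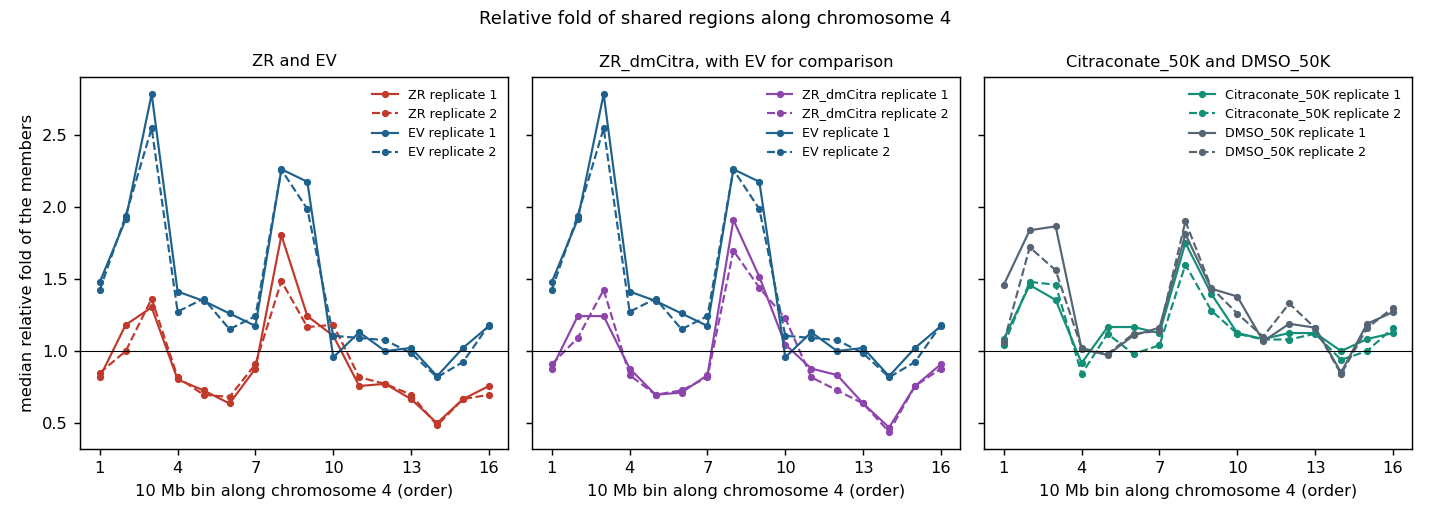
Median relative fold of members in 10 Mb bins along chromosome 4, one point per bin and library, for ZR and EV, for ZR_dmCitra with EV, and for Citraconate_50K and DMSO_50K. The ZR lines run under the EV lines in all bins but the one from 90 Mb, and the bin from 130 Mb has the lowest ZR values at 0.50 and 0.48.

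Neural progenitor genes with a member at a gene end followed the chromosome. Of 22 listed genes 10 had one, of which 9 were lower and none higher, with a median log2 relative fold of −0.96. Of all 524 gene-end members, 82.1% were lower and 3.82% higher, with a median of −0.73. These values are the background for this gene list and for those below. With all lists reduced to the length of the shortest, 1 progenitor gene was still called lower, since most members then have no peak in some list. Genes without a member included Pou3f2, Nfia and Hes2. Chd7, a chromatin remodeller, had fold enrichments of 13.3 and 16.1 in ZR, against 29.1 and 30.7 in EV. Nfib, a nuclear factor I transcription factor, had 16.5 and 16.7 in ZR, against 24.6 and 34.9 in EV. Dmrta2, a transcription factor of the cortical primordium, had 21.3 and 14.5 in ZR, against 41.7 and 46.0 in EV. For these 3 regulators no ZR value reached an EV value.

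Id3, an inhibitor of basic helix-loop-helix factors, had fold enrichments of 5.33 and 5.92 in ZR, against 10.1 and 14.3 in EV. Hes5, a transcriptional repressor downstream of Notch, had 6.39 and 5.92 in ZR, against 10.7 and 10.6 in EV. Ncdn, a neuronal cytoplasmic protein, had 12.2 and 22.1 in ZR, against 28.4 and 31.2 in EV. Id3 and Hes5 were among the weaker members and still separated the lines. Outside the rule Id3 had a peak in neither ZR_DMSO library and not in ZR_GSK343 replicate 1, and its relative fold was 0.394 and 0.333 in ZR_dmCitra. In ZR_GSK343 replicate 2 its relative fold was 0.62, under the 0.696 and 0.818 of EV. Its percentile of 75.7 there was above the 52.4 and 70.1 of EV. In that list the median shared region of the other autosomes stood at 86.4, against 70.9 and 77.2 in EV. In the later series Id3 had relative folds of 0.62 and 0.60 in Citraconate_50K, against 0.514 and 0.540 in DMSO_50K. The listed gene that was neither lower nor higher was Prdm16, with 11.2 and 10.8 in ZR, against 10.1 and 12.7 in EV.

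Of 20 genes listed for NF-kB, AP-1 and cytokine signalling, 18 lie on chromosome 4 and 7 had a member, with 6 lower, 1 higher and a median log2 relative fold of −0.50. Among kinases, Ripk2, which acts downstream of NOD receptors, had 52.2 and 52.7 in ZR, against 96.0 and 115 in EV. Map3k7, an activator of the IKK kinases, had 22.9 and 26.4 in ZR, against 27.2 and 35.4 in EV. Jak1, which serves many cytokine receptors, had 29.8 and 31.2 in ZR, against 37.3 and 40.7 in EV. At none of these kinase genes did the groups overlap. Of the transcription factors, Jun had 45.3 and 39.3 in ZR, against 48.6 and 55.6 in EV. The higher gene was Tlr4, the receptor for lipopolysaccharide, with 24.0 and 19.9 in ZR, against 10.1 and 7.94 in EV. Its relative fold was also above EV in the later series, at 1.5 and 1.2 in Citraconate_50K and 1.78 and 2.12 in DMSO_50K, against 0.696 and 0.455 in EV.

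Of 22 cell cycle and tumour suppressor genes 19 had a member, of which 18 were lower and none higher, with a median log2 relative fold of −0.78. Cdkn2a had fold enrichments of 10.7 and 20.4 in ZR, against 25.3 and 39.2 in EV, in the region from 89294220 to 89295977. Its neighbour Cdkn2b, an inhibitor of CDK4 and CDK6, had 16.5 and 18.3 in ZR, against 32.2 and 42.9 in EV. Mtap, an enzyme of methionine salvage in the same neighbourhood, had 13.8 and 10.8 in ZR, against 24.6 and 31.7 in EV. At the member described for each of these 3 genes both ZR values lay under both EV values. A further Cdkn2a promoter window, at chr4:89282143-89282442, overlapped another member, whose values are not given here. Outside the rule Cdkn2a had relative folds of 1.36 and 1.36 in ZR_dmCitra, against 0.606 and 1.15 in ZR and 1.74 and 2.24 in EV. It had 0.875 and 1.12 in Citraconate_50K, against 0.838 and 0.880 in DMSO_50K.

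Of the strongest members of that list, Nbn, a sensor of double-strand breaks, had 24.0 and 26.4 in ZR, against 42.9 and 56.1 in EV. Ccnc, a cyclin of the Mediator kinase module, had 25.6 and 37.1 in ZR, against 41.7 and 54.5 in EV. Ski, a repressor of TGF-beta signalling, had 24.0 and 27.4 in ZR, against 34.1 and 42.3 in EV. Casp9, an initiator caspase, had 27.2 and 31.2 in ZR, against 36.6 and 42.3 in EV. The groups did not overlap at any of these 4 genes. Cdc20, an activator of the anaphase-promoting complex, was neither lower nor higher, with 21.3 and 24.2 in ZR, against 16.4 and 22.2 in EV.

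Of 22 metabolism and redox genes, 20 lie on chromosome 4 and 18 had a member, with 14 lower, 1 higher and 3 neither, and a median log2 relative fold of −0.55. Aco1, the cytosolic aconitase and iron regulatory protein, had 50.1 and 48.4 in ZR, against 76.4 and 94.7 in EV. Txn1, thioredoxin, had 25.6 and 32.3 in ZR, against 36.0 and 46.0 in EV. Aco1 stayed among the strongest members in ZR despite its lower values. Decr1, an enzyme of unsaturated fatty acid oxidation named after its values were seen, had the largest difference on the list, with 6.39 and 6.99 in ZR, against 22.1 and 29.6 in EV.

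The 3 metabolic genes that were neither lower nor higher were Sdhb, Eno1 and Prdx1. Prdx1, a peroxiredoxin, had fold enrichments of 15.4 and 18.3 in ZR, against 14.5 and 22.7 in EV, and the groups overlapped. Sdhb, the iron-sulphur subunit of succinate dehydrogenase, had 20.2 and 20.4 in ZR, against 15.2 and 28.6 in EV. The higher gene was Ndufs5, a subunit of respiratory complex I, with 19.7 and 19.9 in ZR, against 13.9 and 16.4 in EV.

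Few receptor and adhesion genes had members: 4 of 22 listed genes, of which 21 lie on chromosome 4, with 3 lower and a median log2 relative fold of −0.88. Agrn, a matrix proteoglycan, had 25.6 and 21.0 in ZR, against 40.4 and 58.2 in EV. Dvl1, which relays Wnt signals, had 7.46 and 8.61 in ZR, against 20.2 and 18 in EV. Tnc, a matrix glycoprotein, had 13.3 and 12.9 in ZR, against 17.1 and 17.5 in EV. The gene end of Ror1 was neither lower nor higher, at 19.7 and 25.3 in ZR, against 17.7 and 16.9 in EV.

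Housekeeping genes were also mostly lower: 20 of 24 had a member, of which 18 were lower, none higher and 2 neither, with a median log2 relative fold of −0.67. Rps6, a ribosomal protein, had 22.9 and 22.1 in ZR, against 34.1 and 27.5 in EV. Cap1, an actin-binding protein, had 44.7 and 37.1 in ZR, against 36.6 and 51.3 in EV, and was lower in percentile though its fold enrichments overlapped. Tardbp, an RNA-binding protein, had 21.8 and 18.3 in ZR, against 19.6 and 23.3 in EV. The exceptions were Akirin1 and Sf3a3, and Akirin1, a nuclear cofactor, had 25.0 and 20.4 in ZR, against 20.8 and 21.2 in EV. The 6 lists had medians from −0.96 to −0.50, on either side of the −0.73 over all gene-end members, of which 82.1% were lower. Differences between the lists were not tested.

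In the later series, where 40.2% of all shared regions were lower and 21.2% higher, the calls of the lists were more mixed. For Citraconate_50K against DMSO_50K, 3 of 10 progenitor genes were lower and 2 higher, 4 and 2 of 7 signalling genes, 5 and 3 of 19 cell cycle genes and 8 and 2 of 17 metabolic genes with a peak in all 4 lists. Of receptor genes 2 of 4 were lower and none higher, and of housekeeping genes 3 of 19 were lower and 3 higher.

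**Figure D5:**
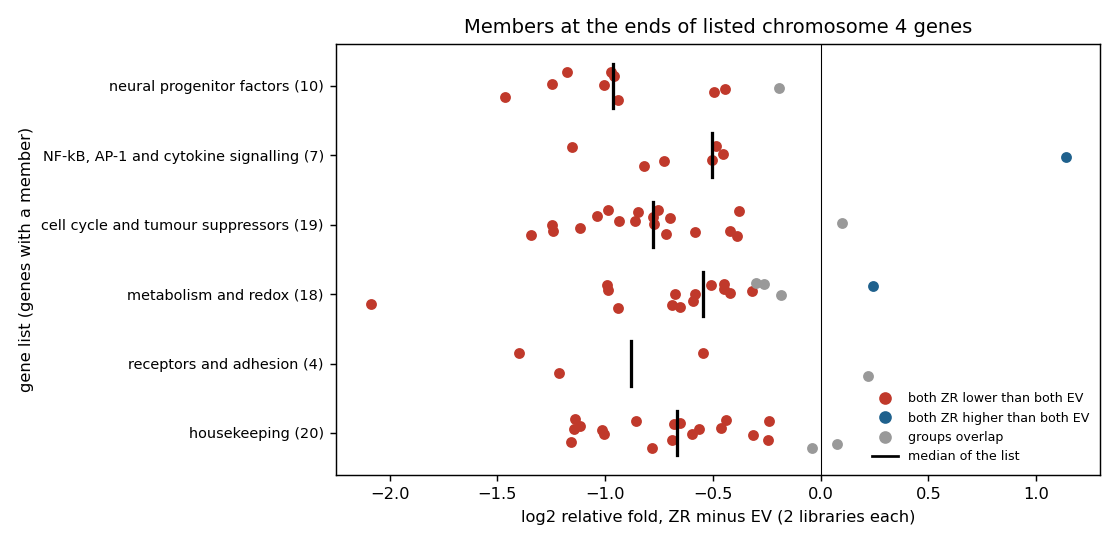
Log2 relative fold, ZR minus EV, for each listed gene with a member at a gene end, by list and coloured by call, with a bar at each list's median. Medians run from −0.96 for neural progenitor factors to −0.50 for NF-kB, AP-1 and cytokine signalling, and Tlr4 and Ndufs5 are the genes called higher.

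The interferon-zeta array held the 5 members with the highest mean percentile over the 14 lists. It comprised 15 members between positions 88756955 and 88806949, with a median spacing of 2945 bp between starts, and Ifnz is the named gene among predicted relatives such as Gm13285 and Gm13289. Interferon zeta is a type I interferon of the mouse. The 15 promoter windows held 10 distinct sequences, and the window of Gm13276 (chr4:88784804-88785103) was identical to that of Ifnz shown above. Reads from such copies may be placed at any of them, so values of single copies are uncertain.

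Every member of the array was lower, as were 194 of 204 gene-end members (95.1%) up to 95 Mb, the stretch that holds it. The median fold enrichment of the array was 50.6 and 47.9 in ZR, against 77.1 and 96.8 in EV. Its median percentile was 96.5 and 96.1 in ZR, against 99.7 and 99.8 in EV. On relative fold the median log2 difference of the array was −0.95, near the −0.92 of gene-end members up to 95 Mb. Over all members it was −0.64. The median percentiles of the array differed by only a few points. Medians outside the rule were 13.4 and 43.3 in ZR_GSK343, 56.6 and 55.2 in ZR_dmCitra and 11.9 and 14.2 in ZR_DMSO. They were 50.4 and 56.1 in Citraconate_50K, against 58.0 and 71.2 in DMSO_50K. The 5 highest members by mean percentile were Gm13285, Gm13289, Gm13287, Gm13290 and Gm13272, while other members of the array were weaker, down to 13.8 and 14.5 in ZR. Gm13285 had 54.9 and 61.3 in ZR, against 88.4 and 113 in EV. Without the array the offset was −13.8 and −13.5 in ZR, against 4.79 and 4.29 in EV, so the offset was as far apart without these copies.

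Members with a peak in all 14 lists numbered 114, and 6 members had one in as few as 6 lists. At the 114 the relative fold against equally constant regions of other autosomes was 0.84 and 0.89 in ZR, against 1.45 and 1.44 in EV. It was 0.98 and 1.02 in ZR_dmCitra, 1.43 and 1.49 in Citraconate_50K and 1.46 and 1.34 in DMSO_50K. The later series again stood with EV.

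In contrasts outside the rule, the shares of members called were near those of all shared regions. For Citraconate_50K against DMSO_50K, 311 of 773 members with a peak in all 4 lists (40.2%) were lower and 150 (19.4%) higher, against 40.2% and 21.2% of all shared regions. For ZR_GSK343 against ZR_DMSO, 3 of 116 members were lower and 45 (38.8%) higher, against 3.11% and 45.8%. For ZR_dmCitra against ZR_DMSO, 11 of 149 (7.38%) were lower and 128 (85.9%) higher, against 6.08% and 81%. These lists differ in length, and the members counted are those that kept a peak in the short ZR_DMSO lists, so the shares near the background are not a result about chromosome 4.

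The ends of the chromosome and of the rule were as follows. The first member, from position 3050004, had 6.39 and 11.8 in ZR, against 6.32 and 15.3 in EV, and was neither lower nor higher. The last, at Klhl17 and Noc2l, had 11.7 and 9.68 in ZR, against 18.3 and 22.7 in EV, and was lower. Just outside the rule, 193 chromosome 4 regions had a peak in 3 of the 4 lists. Their median percentile was 27.4 and 28.0 in ZR, against 39.0 and 47.5 in EV. The list without a peak was ZR replicate 1 for 67 of them and ZR replicate 2 for 51, against EV replicate 1 for 61 and EV replicate 2 for 14. As shares of the 193 these were 34.7% and 26.4% for ZR and 31.6% and 7.25% for EV, while on the other autosomes they were 17.3% and 18.8% for ZR and 49.6% and 14.4% for EV. Of all merged chromosome 4 regions, 407 (11.6%) had peaks in both ZR lists and in no EV list. Another 870 (24.8%) had peaks in both EV lists and in no ZR list. On the other autosomes the shares of these ZR-only and EV-only regions were 22.9% and 15.1%. The balance of line-specific regions on chromosome 4 was thus the reverse of that elsewhere.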

How the data were processed

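Each ATAC-seq library was made from 50000 cells and read from both ends at 50 nt, per the labels' protocols. The submitters' processing notes name mm10 as the build and list BWA, SAMtools and Picard with no version. Peak names in the deposited files show MACS2 calls for single libraries, with settings not given in the sources used here. The deposited lists give each peak's fold enrichment, a ratio over background that is the authors' own value and was used to rank peaks within a list. They also give −log10 p-values and q-values, deposited by the authors, of which q served as an alternative ranking and filter, and a deposited score that was not used for results.

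All 14 libraries were used. Peaks of the ZR and EV lists were merged, and a region counted as present in a list where one of its peaks shared 1 bp or more with it. Where several peaks overlapped a region, the one with the highest fold was used. Percentiles were taken among a library's deposited autosomal peaks, and X, Y and other contigs were left out. Gene positions and promoter sequences came from RefSeq tables of GRCm38.p6. A gene-end region lay within 1 kb of either end of a protein-coding gene. Listed genes were described by the member with the highest mean percentile over the lists.

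The members, gene lists and contrasts were chosen with earlier results of these data known. Up to 4 genes per list with the highest mean percentile were named, with the 5 members differing most in each direction, the 5 highest in all lists, the first and last member, and Id3, Hes5, Pou3f2, Jun, Nfia, Nfib, Cdkn2a, Aco1 and Prdx1. Other genes were named after their values were seen. A gene that this rule names in the metabolism list is not reported here. Offset, presence and share were compared in libraries outside the rule by two-sided exact permutation tests, with Benjamini-Hochberg adjustment over 12 tests, and 15 with the contrast added after the values were seen. The relative fold was also added after the values were seen, because percentiles saturate. Scripts in Python 3.11.15 with pandas 2.3.3 and numpy 2.4.6 were tested on simulated lists. With 2 libraries per group an SD is imprecise, and no counting interval can be given without read counts.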

Additional observations from a re-analysis of the deposited data

Results flagged for a closer look

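The share of peaks on chromosome 4 moved in opposite directions with the line label in the 2 library series, by −2.44 percentage points for ZR minus EV and by 0.371 for Citraconate_50K minus DMSO_50K. Every library of each pair moved the same way, and the difference between the series was not tested. The labels of the later series are in doubt, and citraconate and the line label cannot be told apart there.

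Several named members are given for the same reason, that both libraries moved 1 way in the first series and the other way in the later one, with no test of the difference. The gene end of Chd7 differed by −25.6 percentile points for ZR minus EV and by 23.3 for Citraconate_50K minus DMSO_50K. Ncdn differed by −22.2 and 2.81, Casp9 by −7.60 and 1.19, and Jak1 by −6.46 and 3.58. In the interferon array Gm13290 differed by −3.25 and 0.152 and Gm13287 by −2.10 and 0.121. The distal regions went the other way. The region near Asph differed by 69.6 in the first series and −21.4 in the later one, that near Abca1 by 60.0 and −21.1, and that near Ror1 by 62.5 and −2.59. Among members with all 8 values, 180 of 773 (23.3%) moved in opposite directions in the 2 series, against 27.4% of shared regions on the other autosomes; the difference in share was not tested.

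Outside the chromosomes compared, peaks on the Y chromosome made up 0.768% of the Citraconate_50K lists on average, against 0.140% and 0.220% in DMSO_50K. The share was higher still in ZR_DMSO, at 1.95% and 1.54%, and in ZR_GSK343, at 2.26% and 1.07%. The EV, ZR and ZR_dmCitra libraries lay between 0.251% and 0.429%. Peaks outside chromosomes 1 to 19, X and Y averaged 0.494% in Citraconate_50K, against 0.191% and 0.208% in DMSO_50K. The Citraconate_50K lists were also shorter, at 31864 and 29574 peaks against 52771 and 60472 in DMSO_50K. The part of list length in these shares was not tested.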

How the results depend on the processing

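The ZR minus EV offset of −16.9 stayed negative under every setting run, and 5 Mb and 20 Mb bins gave ZR under EV in 31 of 32 and 8 of 8 bins. It was −22.7 with percentiles among shared regions, −19.1 with the mean over overlapping peaks, −21.4 with lists reduced to the length of the shortest, −17.9 at −log10 q of at least 5, −12.7 where a peak had to cover 50% of a region, −13.9 with means over regions, −15.1 at distal regions, and from −20.4 to −17.8 without single libraries. Its share of peaks was −3.61 with reduced lists. The 601 lower members became 187 with reduced lists (85.0% of the members with a peak in all 4 lists, against 72.2% as reported), 383 of 505 with 50% coverage and 171 of 308 at distal regions, where fewer members enter. With reduced lists the genes called lower numbered 1 for the progenitor list, 4 for signalling, 7 for cell cycle, 4 for metabolism, 1 for receptors and 4 for housekeeping, for the same reason. The share lower from 95 to 105 Mb was 56.2% with reduced lists, 34.3% to 39.6% under the other settings, and 34.0% to 49.2% without single libraries.

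The ZR_dmCitra minus ZR_DMSO offset of 0.753 changed sign to −2.44 among shared regions, −1.02 with the mean over peaks, −6.09 with reduced lists, −1.83 at the stricter q, −13.1 with 50% coverage, −1.34 at gene ends and −3.44 at distal regions, and ranged from −1.80 to 3.30 without single libraries. The Citraconate_50K minus DMSO_50K offset of −0.369 became 1.41 with reduced lists, 0.843 at the stricter q, 3.84 with absent regions at 0, 0.427 at gene ends and 1.17 at distal regions, and ranged from −1.23 to 0.490. The ZR_GSK343 minus ZR_DMSO offset ranged from −15.6 to 6.77. With 50% coverage the presence gap became −9.51 for ZR_GSK343 and −1.31 for ZR_dmCitra. Without ZR_DMSO and ZR_GSK343 it was 1.56 by line label. The relative fold changed sign for Citraconate_50K minus DMSO_50K, to 0.0203 with reduced lists and 0.00683 at gene ends, and for the later against the first series, to −0.11 with 50% coverage. The cause was not tested for any of these.

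Of 364 values of named members under settings other than leaving out a library, 2 reversed, Txn1 at 8.82 and Tnc at 2.06 percentile points with the mean over peaks. Of 180 values without single libraries 6 reversed: the first member at 17.5 and 10.1, and Sdhb, Akirin1, Prdx1 and Ror1 once each. The first member ranged from −36.2 to 17.5, Sdhb from −11.4 to 5.67, Akirin1 from −4.61 to 1.03, Prdx1 from −13.2 to 0.623 and the gene end of Ror1 from −0.143 to 7.46.

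Replicate numbers were not taken to pair libraries, since the labels give no shared source. Same-numbered deviations correlated at 0.002, 0.083, −0.011 and −0.044 over regions in the 4 contrasts. With the replicate number as a block no tested contrast changed its call, 632 members were lower in place of 601, and the exact permutation p for the offset by line label was 0.16. No setting brought an adjusted exact permutation p in these contrasts under 0.05, and the lowest was 0.179.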
